A study of Canis lupus familiaris with 29 samples.

Results

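The monolayer course of DENND5A-KD cells was followed from seeding to day 4 on permeable supports, in 4 of the 29 RNA sequencing libraries of the series. The cells are MDCKII, a dog kidney tubule epithelial line that forms polarised sheets and cysts in culture. The libraries titled DENND5A-KD1 2D-D4 and DENND5A-KD2 2D-D4 were set against DENND5A-KD1 D0 and DENND5A-KD2 D0, and each day 4 library was paired with the day 0 library of the same number, here called line 1 and line 2. All 4 libraries carry the genotype DENND5A-KD, so the knockdown is shared by both sides of the comparison. Day 4 cells were grown on transwell inserts past confluence, and day 0 cells are those collected for seeding. Time, crowding and growth on the insert therefore cannot be told apart. For context, the same course was read in AVL9-KD cells (lines 1 and 4, 2 libraries at day 4 and 2 at day 0) and in wild-type MDCKII cells (3 libraries at day 4 and 4 at day 0), and DENND5A-KD was also sampled at day 7 on inserts (2 libraries). The labels do not say whether a number marks a clone, a hairpin or a guide, nor whether libraries were grown apart. The p-values rest on the spread among these libraries, which may be technical. No control line treated in the same way as the knockdowns is among the samples analysed here.

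DENND5A belongs to the DENN domain family, whose members act on RAB GTPases, the switches that direct vesicles between membranes. DENND5A is known as a partner of RAB6 and RAB39, and AVL9 is another DENN domain protein. When kidney epithelial cells crowd into a sheet they leave the cell cycle, separate an apical from a basolateral surface, grow a primary cilium and build up pumps and channels for transport across the sheet.

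Values are FPKM, fragments scaled to transcript length and library size, as deposited by the authors. Changes are differences of log2(FPKM + 1), day 4 minus day 0, averaged over the 2 lines and given with a standard error (SE), and this scale understates the change of genes with low FPKM. Adjusted p-values are from limma with Benjamini-Hochberg adjustment over the 10769 genes that reached 1 FPKM in 2 or more of the 4 libraries, and a gene passed at an adjusted p under 0.05. A gene under 1 FPKM in both libraries of 1 day met this filter only through the other day, where it was high. Its change is a description, whatever its adjusted p. Counts of calls and medians of lists include such genes. The 4 libraries summed to 276666 to 339084 FPKM and held 10237 to 10835 genes at 1 FPKM or more. Their absolute depth is unknown. Relative to day 0 line 1, depth read from the steps between low values was 0.917 and 0.983 at day 4 (lines 1 and 2) and 1.25 in day 0 line 2. In bulk RNA, fewer cells of a kind and less RNA per cell cannot be told apart.

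DENND5A itself read 3.36 and 4.29 FPKM in the day 4 libraries (lines 1 and 2), against 2.02 and 1.88 FPKM at day 0. It rose by 0.71 ± 0.13 (SE, adjusted p = 0.00383), so the targeted transcript was not constant over the course. Wild-type libraries averaged 10.6 ± 0.367 FPKM at day 4 (SD, n = 3) and 5.62 ± 0.895 FPKM at day 0 (SD, n = 4), and the difference between the knockdown and wild-type changes was -0.12 ± 0.19 (adjusted p = 0.862). The knockdown libraries lay below every wild-type library of the same day. AVL9 stood at 23.2 and 22.3 FPKM at day 4 and 21.5 and 23.6 FPKM at day 0, a change of 0.01 ± 0.11 (adjusted p = 0.927).

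The epithelial label held in all 4 libraries. Of 10 epithelial markers, 6 were in the files and all 6 were expressed. EPCAM, an epithelial adhesion molecule, read 281 and 330 FPKM at day 4 against 263 and 296 FPKM at day 0, and the keratin KRT19 read 488 and 723 FPKM against 470 and 569 FPKM. CLDN4 read 99.2 and 116 FPKM against 136 and 177 FPKM, and OCLN 28.4 and 31.1 FPKM against 31.7 and 36.9 FPKM. These 4 did not pass, while CDH1 fell and PAX8 rose, with values given below. Of 10 fibroblast markers, 9 were in the files and 8 of those were listed at 0 in all 4 libraries, collagen I genes included, and the summed level was 8.08 and 9.07 FPKM at day 4 against 14.1 and 17.5 FPKM at day 0, all of it FBLN1. Of 10 endothelial markers FLT1 alone reached 1 FPKM, and the sums were 26.6 and 28.2 FPKM against 53.7 and 55.9 FPKM. Of 9 measured leukocyte markers CD74, the invariant chain of antigen presentation, alone reached 1 FPKM, with 827 and 1197 FPKM at day 4 against 347 and 370 FPKM at day 0. PTPRC, the pan-leukocyte antigen, was listed at 0 throughout.

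Most genes tested moved. Of the 10769 genes, 5764 passed (53.5%), 2576 higher (23.9%) and 3188 lower (29.6%) at day 4, with a median change of -0.05 over all genes tested. At least 2-fold changes numbered 713 higher and 632 lower, and at least 4-fold changes 98 and 41. Every one of the 5764 genes moved the same way in both lines, and in 24 of them the day 4 and day 0 values nevertheless overlapped. A test on the mean of the 2 changes favours genes whose lines agree, so the shared direction is partly built in. Across genes, which are not independent replicates, the changes of line 1 and line 2 correlated with r = 0.897. The share of calls that were higher was 44.7%, and after median-ratio scaling of the libraries it was 53.5%. The number of calls rested on having both lines: it was 2545 without day 0 line 2, 3203 without day 4 line 2, 3336 without day 0 line 1 and 4348 without day 4 line 1.

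**Figure D1:**
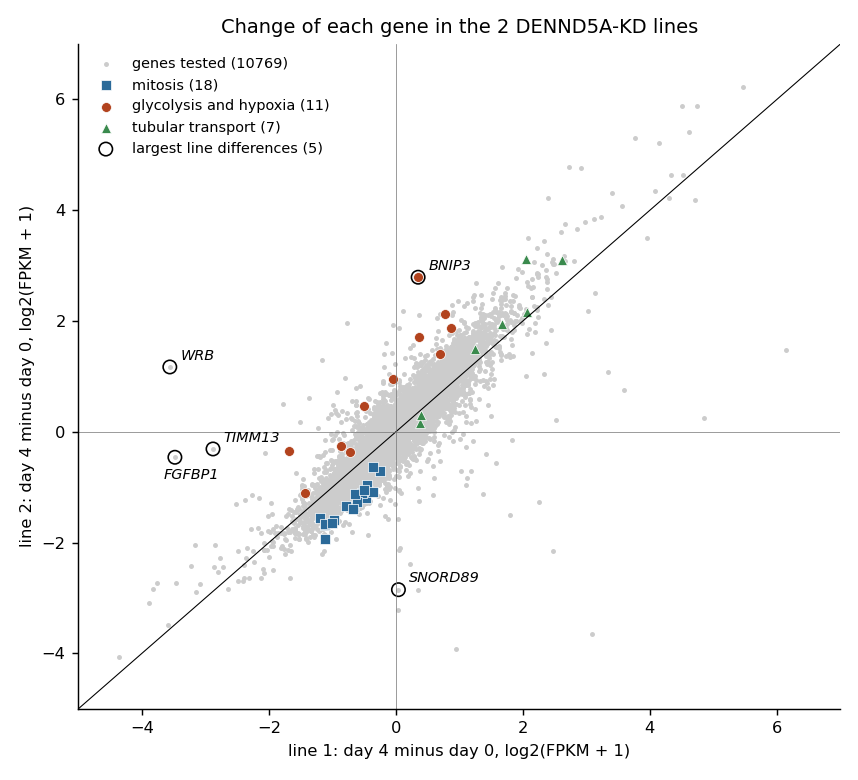
Change of each tested gene in line 1 (x axis) and line 2 (y axis), day 4 minus day 0 in log2(FPKM + 1), with the line of equality. The 18 mitosis genes (squares) all lie below the line of equality, with smaller falls in line 1, and the 11 glycolysis and hypoxia genes (circles) all lie above it. Open circles mark the 5 genes with the largest difference between lines among those with a symbol and a mean of at least 5 FPKM, and genes outside that rule lie farther off the line.

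Among genes with a symbol of their own, PODN, CLDN2, COL18A1, DHRS3, FXYD2 and CHRM4 led the rises. PODN, a leucine-rich matrix proteoglycan, read 32.0 and 74.9 FPKM at day 4 against 0.455 and 0.289 FPKM at day 0, a change of 5.19 ± 0.41 (SE, adjusted p = 0.000269). CLDN2, a claudin that forms cation-selective pores in leaky tight junctions, read 38.6 and 65.1 FPKM against 0.617 and 0.563 FPKM (5.01 ± 0.22, adjusted p = 5.57e-05). COL18A1, a basement membrane collagen, read 73.2 and 118 FPKM against 3.21 and 2.22 FPKM (4.68 ± 0.34, adjusted p = 0.000225). The rule that chose the leading genes required groups that stand apart. Among all genes tested, 33.7% stood apart with day 4 higher and 40.5% with day 4 lower. Line 2 was the higher at day 4 in PODN, CLDN2 and COL18A1. At that day line 1 was the higher in only 2222 of the 10769 genes tested. DHRS3, which reduces retinaldehyde, read 25.4 and 32.8 FPKM against 0.149 and 0.356 FPKM (4.58 ± 0.11, adjusted p = 9.65e-06). FXYD2, the gamma subunit of the sodium pump, read 14.4 and 51.1 FPKM against 0.13 and 0.316 FPKM (4.54 ± 0.46, adjusted p = 0.000489). CHRM4, a muscarinic acetylcholine receptor, read 92.7 and 102 FPKM against 3.67 and 3.16 FPKM (4.48 ± 0.11, adjusted p = 9.65e-06). The 2 lines agreed closely for CHRM4 and less so for FXYD2, where line 1 was the lower at day 4. PODN, CLDN2, DHRS3 and FXYD2 met the filter only through day 4, so their changes are a description. The other 6 of the 12 largest rises were RIPPLY1, a transcriptional corepressor (4.44), APOBEC1, a cytidine deaminase (4.26), SEPP1, the selenium carrier selenoprotein P (4.21), SNCG, gamma-synuclein (3.86), PDZK1, a scaffold under the apical membrane (3.84) and CCDC148 (3.82).

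Among genes with a symbol, CSF2, ANKRD1, FST, TIMP3, LOX and F3 led the falls. CSF2, the cytokine GM-CSF, read 1.53 and 2.97 FPKM at day 4 against 29.3 and 43.7 FPKM at day 0 (-3.54 ± 0.14, SE, adjusted p = 4.26e-05). ANKRD1, an ankyrin repeat cofactor and YAP target, read 0.571 and 2.66 FPKM against 22.3 and 30.1 FPKM (-3.49 ± 0.30, adjusted p = 0.000303). FST, follistatin, which binds activin, read 3.77 and 11.2 FPKM against 66.6 and 86.0 FPKM (-3.33 ± 0.30, adjusted p = 0.000355). INHBA, the activin A subunit, fell with its inhibitor: it read 1.25 and 1.69 FPKM against 18.1 and 17.0 FPKM (-2.91 ± 0.12, adjusted p = 4.7e-05). TIMP3, a matrix-bound inhibitor of metalloproteinases, read 21.6 and 56.7 FPKM against 304 and 382 FPKM (-3.24 ± 0.23, adjusted p = 0.000218). F3, tissue factor, read 47.0 and 58.2 FPKM against 425 and 440 FPKM (-3.02 ± 0.11, adjusted p = 4.11e-05). These were abundant transcripts at day 0, and groups that stand apart were part of the rule that chose them. LOX, which cross-links collagen (-3.10), DHRS2, a short-chain dehydrogenase (-2.82), DSG3, a desmosomal cadherin (-2.74), PLK2, a polo-like kinase (-2.66), TM4SF1, a tetraspan membrane protein (-2.60) and EDIL3, an integrin-binding matrix protein (-2.59) completed the 12.

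**Figure D2:**
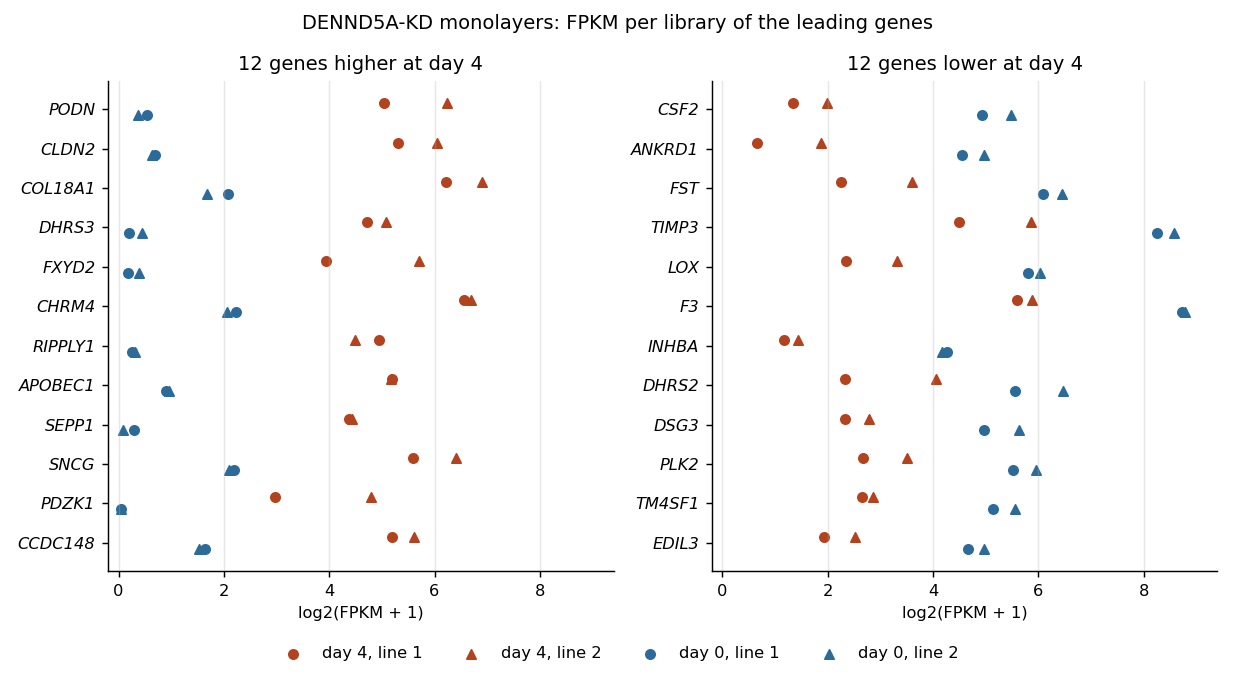
Log2(FPKM + 1) in each library of the 12 largest rises (left) and 12 largest falls (right), day 4 drawn above day 0 for each gene, with circles for line 1 and triangles for line 2. The day 4 and day 0 values stand apart in all 24 genes, as the rule that chose them required. FXYD2 and PDZK1 show the widest gaps between lines at day 4 among the rises.

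Cell cycle genes fell, and fell less in line 1 than in line 2. Of the 20 listed mitosis genes 18 were tested, 14 of them fell and none rose, with a median change of -0.97 against -0.05 over all genes tested. After quantile normalization 10 fell, and after median-ratio scaling 11. CDC20, the activator of the anaphase-promoting complex, read 8.7 and 5.89 FPKM at day 4 against 18.1 and 19.8 FPKM at day 0 (-1.29 ± 0.19, SE, adjusted p = 0.0019). AURKA, a spindle pole kinase, read 14.5 and 9.04 FPKM against 32.6 and 30.9 FPKM (-1.39 ± 0.21, adjusted p = 0.00177). PLK1, the mitotic polo-like kinase, read 21.6 and 13.5 FPKM against 48 and 45.8 FPKM (-1.40 ± 0.26, adjusted p = 0.00455). Line 1 was the higher of the day 4 libraries for all 18 genes, while the day 0 libraries were close. The 4 that did not pass were CCNB2 (-0.83), TOP2A (-0.71), NUSAP1 (-0.48) and FOXM1 (-0.49), and by line the median of the list was -0.66 in line 1 and -1.30 in line 2. At day 7 every one of the 18 averaged lower than at day 4, with a median of -2.0 relative to day 0 and with line 1 now the lower line for all 18. CDK1, the mitotic cyclin-dependent kinase, averaged 109 ± 1.03 FPKM at day 0, 41.7 ± 6.97 FPKM at day 4 and 22.5 ± 2.14 FPKM at day 7 (SD, n = 2 each). Day 4 line 1 also had the lower glycolysis and hypoxia values (median change -0.04 in line 1 and 0.95 in line 2), whose part in the mitosis values was not tested. The count of 14 was 3 without day 0 line 2, 8 without day 0 line 1 and 6 without day 4 line 2.

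Genes of DNA replication fell more evenly. Of 19 tested, 18 fell and none rose, with a median of -1.10 and with -0.99 in line 1 and -1.09 in line 2. After either quantile normalization or median-ratio scaling, 17 fell and 1 rose. CDC45, a subunit of the replicative helicase, read 2.35 and 2.74 FPKM at day 4 against 13.2 and 14 FPKM at day 0 (-2.04 ± 0.14, SE, adjusted p = 0.000198). MCM5, of the same helicase, read 18.4 and 17.9 FPKM against 42.8 and 44.9 FPKM (-1.23 ± 0.12, adjusted p = 0.000423). TYMS, which makes thymidylate, read 24.7 and 24.6 FPKM against 51.9 and 59.3 FPKM (-1.14 ± 0.10, adjusted p = 0.000322). The lines were nearly equal at day 4 in these 3 genes. The exception was RRM2, the small subunit of ribonucleotide reductase, with 340 and 271 FPKM at day 4 against 226 and 236 FPKM at day 0 (0.40 ± 0.15, adjusted p = 0.0558).

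Regulators of the cycle moved both ways. Of 13 tested, 6 rose and 6 fell. Among the falls were 5 cyclins: CCND1, cyclin D1, read 9.96 and 13.2 FPKM at day 4 against 41.9 and 58.2 FPKM at day 0 (-2.01 ± 0.16, adjusted p = 0.000294), and CCND2, CCND3, CCNE1 and CCNE2 fell by 1.06, 0.71, 1.25 and 0.93. The inhibitor CDKN1B (p27) read 10.1 and 10.4 FPKM against 4.63 and 4.86 FPKM (0.97 ± 0.11, adjusted p = 0.000708), and CCNG2, an unusual cyclin of resting cells, read 13.8 and 13.7 FPKM against 4.45 and 5.13 FPKM (1.35 ± 0.13, adjusted p = 0.000375). CDKN2B (p15) read 13.3 and 6.95 FPKM against 2.47 and 2.94 FPKM (1.53 ± 0.45, adjusted p = 0.0257), and 3.34 and 3.35 FPKM at day 7. Its rise was thus seen at day 4 and larger in line 1. CDKN1A (p21) went the other way from CDKN1B, with 4.26 and 5.28 FPKM against 21.4 and 34.1 FPKM (-2.29 ± 0.23, adjusted p = 0.000489).

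Kidney identity and transport genes rose. Of 9 tested identity genes 7 rose and 1, LHX1, fell (-0.50), with a median of 0.95. PAX8, which specifies the kidney lineage, read 40.1 and 53.2 FPKM at day 4 against 22 and 24.9 FPKM at day 0 (0.95 ± 0.13, SE, adjusted p = 0.00135). CDH16, the kidney-specific cadherin, read 6.09 and 28.2 FPKM against 0.0717 and 0.0697 FPKM (3.75 ± 0.50, adjusted p = 0.00118), and 59.7 and 68.6 FPKM at day 7. Line 1 lagged in CDH16 at day 4 and stood beside line 2 at day 7. CDH16 and FXYD2, both among the 7 rises, met the filter only through day 4, so their changes are a description. HNF4A, a regulator of proximal tubule and liver genes, read 1.12 and 2.32 FPKM against 0.0443 and 0.0792 FPKM and did not pass (1.32 ± 0.51, adjusted p = 0.0622).

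Of 7 tubular transport genes tested, 6 rose and none fell, with a median of 1.80. SLC12A2, the basolateral sodium-potassium-chloride cotransporter, read 137 and 148 FPKM at day 4 against 32.2 and 32.2 FPKM at day 0 (2.11 ± 0.11, SE, adjusted p = 0.000117). CA2, a cytosolic carbonic anhydrase, read 374 and 632 FPKM against 89.3 and 72.1 FPKM (2.58 ± 0.24, adjusted p = 0.000398). KCNJ16, a basolateral potassium channel, rose by 2.86 ± 0.28 (adjusted p = 0.00046). ATP1B1, the beta subunit of the sodium pump, read 94.6 and 87.9 FPKM against 72.6 and 78.6 FPKM and did not pass (0.27 ± 0.20, adjusted p = 0.296). The water channels AQP2, listed at 0, and AQP3, with 0.259 and 1.66 FPKM against 0.0883 and 0.239 FPKM, were below the expression limit of the test. Of the 8 intercalated cell markers, 1 was tested, the proton pump subunit ATP6V1B1 (0.86 ± 0.14, adjusted p = 0.00223), and FOXI1, the factor that defines those cells, was listed at 0.

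On the apical side 5 of 10 tested genes rose and 1 fell, with a median of 0.24. PODXL, the sialomucin of the MDCK lumen, read 151 and 198 FPKM at day 4 against 110 and 115 FPKM at day 0 (0.62 ± 0.16, SE, adjusted p = 0.0175), and MUC1, a membrane mucin, read 68.8 and 93.8 FPKM against 38.8 and 50.4 FPKM (0.85 ± 0.10, adjusted p = 0.000793). PDZK1, among the 5 rises, read 6.79 and 26.9 FPKM against 0.0341 and 0.0279 FPKM, and met the filter only through day 4. The peptidase DPP4 read 1.07 and 1.46 FPKM against 4.2 and 4.64 FPKM and fell (-1.26 ± 0.22, adjusted p = 0.00311). Apical rises were small apart from PDZK1, and the count of 5 was 1 when day 0 line 1, day 0 line 2 or day 4 line 2 was left out. EZR, ezrin, which ties microvilli to actin, read 176 and 235 FPKM against 191 and 231 FPKM (-0.04 ± 0.12, adjusted p = 0.776).

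Junction genes moved both ways. Of 15 tight junction genes 5 rose and 2 fell (median 0.12). The 5 include CLDN2, which met the filter only through day 4. Beside CLDN2, the magnesium-permeability claudin CLDN16 read 7.26 and 13.5 FPKM at day 4 against 3.39 and 3.54 FPKM at day 0 (1.29 ± 0.20, adjusted p = 0.00215), and the scaffold TJP3 rose by 0.64 ± 0.10 (adjusted p = 0.00231). The sealing claudin CLDN1 read 144 and 133 FPKM against 196 and 234 FPKM (-0.63 ± 0.12, adjusted p = 0.00421), and CLDN7 fell by 0.52. Occludin OCLN (-0.20) and the scaffold TJP1 (-0.11) did not pass. Of 16 adherens junction and desmosome genes, 4 rose and 7 fell (median 0.00). CTNNB1, beta-catenin, read 372 and 494 FPKM against 145 and 155 FPKM (1.51 ± 0.14, adjusted p = 0.000331), while CDH2, N-cadherin, read 2.81 and 4.76 FPKM against 15.6 and 19.5 FPKM (-1.98 ± 0.11, adjusted p = 0.000117). E-cadherin, CDH1, read 166 and 215 FPKM against 248 and 296 FPKM (-0.52 ± 0.14, adjusted p = 0.017). Desmosomal DSC3 and PKP3 fell by 1.31 and 0.83. Of 11 polarity genes, 1 rose and 4 fell (median -0.01): the Crumbs complex scaffold PATJ, named INADL in the files, read 32.1 and 44.1 FPKM against 16.6 and 17.5 FPKM (1.10 ± 0.12, adjusted p = 0.000661), and the atypical kinase PRKCI read 53.2 and 57.9 FPKM against 84.8 and 102 FPKM (-0.74 ± 0.11, adjusted p = 0.00216).

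In the family of the targeted gene and the RAB machinery, 9 of 26 tested genes rose and 5 fell, with a median of 0.09. The share past the test, 53.8%, was that of all genes tested, 53.5%. DENND2A read 2.96 and 4.41 FPKM at day 4 against 0.599 and 0.638 FPKM at day 0 (1.52 ± 0.16, SE, adjusted p = 0.000491), and DENND3 read 5.55 and 6.51 FPKM against 9.37 and 11 FPKM (-0.67 ± 0.10, adjusted p = 0.00177). SYTL2, a RAB27 effector of apical delivery, read 11.7 and 13.8 FPKM against 2.19 and 2.58 FPKM (2.02 ± 0.16, adjusted p = 0.00029). RAB17, an epithelial RAB, read 2.26 and 5.27 FPKM against 0.632 and 0.761 FPKM (1.42 ± 0.23, adjusted p = 0.0027). EXOC4, an exocyst subunit, rose by 0.67 ± 0.10. DENND2A and RAB17, both among the 9 rises, met the filter only through day 4, so their changes are a description. The closest relative of the target, DENND5B, read 1.83 and 2.19 FPKM against 2.19 and 2.49 FPKM (-0.15 ± 0.13, adjusted p = 0.359), and RAB11A, of recycling endosomes, 91 and 97.4 FPKM against 87.5 and 95.6 FPKM (0.04 ± 0.09, adjusted p = 0.717).

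Primary cilium genes rose in 13 of 20 cases and none fell, with a median of 0.95. IFT172, of the intraflagellar transport train, read 6.11 and 7.96 FPKM at day 4 against 1.12 and 1.2 FPKM at day 0 (1.88 ± 0.16, SE, adjusted p = 0.000295). BBS2, of the BBSome that carries ciliary membrane proteins, read 8.7 and 10.3 FPKM against 3.56 and 4.03 FPKM (1.13 ± 0.10, adjusted p = 0.000304). The polycystin PKD2 rose by 1.21 ± 0.14, and its partner PKD1 read 3.2 and 3.15 FPKM against 2.54 and 2.48 FPKM without passing (0.25 ± 0.11, adjusted p = 0.0986). The count held between 10 and 13 when single libraries were left out.

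Lysosome genes rose in 10 of 15 cases and none fell (median 0.49), with NPC2, a cholesterol carrier, at 162 and 261 FPKM at day 4 against 91.4 and 102 FPKM at day 0 (1.08 ± 0.19, adjusted p = 0.00313) and the proton pump subunit ATP6V1A at 81.7 and 74.6 FPKM against 35.8 and 43 FPKM (0.97 ± 0.12, adjusted p = 0.000804). The count was 5 without day 0 line 2. Retinoid genes rose in 5 of 7 cases and none fell (median 0.92). The 5 include DHRS3, which met the filter only through day 4. Beside DHRS3, the retinol carrier RBP4 read 37.1 and 86.3 FPKM against 5.29 and 6.18 FPKM (3.10 ± 0.27, adjusted p = 0.000319), and ALDH1A1, which makes retinoic acid, read 337 and 425 FPKM against 59.4 and 51 FPKM (2.76 ± 0.17, adjusted p = 0.000164). Of 9 Wnt genes 3 rose and 2 fell (median 0.26): the feedback genes AXIN2 (1.54 ± 0.23) and ZNRF3 (1.16 ± 0.14) and the target SP5 (0.83 ± 0.23) rose, and the ligand WNT7A (-0.84 ± 0.23) and the Wnt-inactivating esterase NOTUM (-0.73 ± 0.16) fell.

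Of 13 basement membrane genes 7 rose and 2 fell (median 0.66). AGRN, agrin, read 144 and 237 FPKM at day 4 against 66.5 and 74.7 FPKM at day 0 (1.38 ± 0.18, SE, adjusted p = 0.00112), and the laminin chain LAMB3 read 95.5 and 110 FPKM against 43.9 and 58.9 FPKM (1.00 ± 0.10, adjusted p = 0.000476). Another laminin chain, LAMA3, fell (-0.86). Of 16 actin cytoskeleton genes 1 rose and 8 fell (median -0.36), with ACTN1, alpha-actinin, at 36.4 and 46.2 FPKM against 91.6 and 113 FPKM (-1.29 ± 0.09, adjusted p = 0.000198). Of 13 YAP and TAZ targets and cofactors 3 rose and 5 fell (median -0.25). Beside ANKRD1 and F3, CYR61 read 71.9 and 120 FPKM against 326 and 400 FPKM (-1.94 ± 0.16, adjusted p = 0.000294), while CTGF read 4.64 and 6.73 FPKM against 6.21 and 8.59 FPKM and did not pass (-0.33 ± 0.17, adjusted p = 0.142). Of 9 mesenchymal genes 2 rose and 4 fell (median -0.54): VIM, vimentin, read 727 and 737 FPKM against 1690 and 2091 FPKM (-1.36 ± 0.22, adjusted p = 0.00247), and the repressor SNAI2 fell by 1.09. S100A4, a calcium-binding protein, rose (1.61 ± 0.29, adjusted p = 0.00383), as did TGFBI (0.48).

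Genes of BMP and TGF-beta signalling fell in 8 of 14 cases and 1 rose, ID4 (0.88 ± 0.29), with a median of -0.53. Members on both sides of the pathways fell. The ligand BMP4 read 7.11 and 9.43 FPKM at day 4 against 24.3 and 28.9 FPKM at day 0 (-1.58 ± 0.17, SE, adjusted p = 0.000559), and its antagonist NOG, noggin, read 1.99 and 1.94 FPKM against 14.3 and 13.2 FPKM (-2.32 ± 0.11, adjusted p = 7.53e-05). The ligand TGFB2 fell by 1.63 ± 0.25, and the activin subunit INHBA and follistatin were among the leading falls. The BMP response gene ID3 read 19.1 and 33.9 FPKM against 30.9 and 31.3 FPKM (-0.28 ± 0.18, adjusted p = 0.224).

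**Figure D3:**
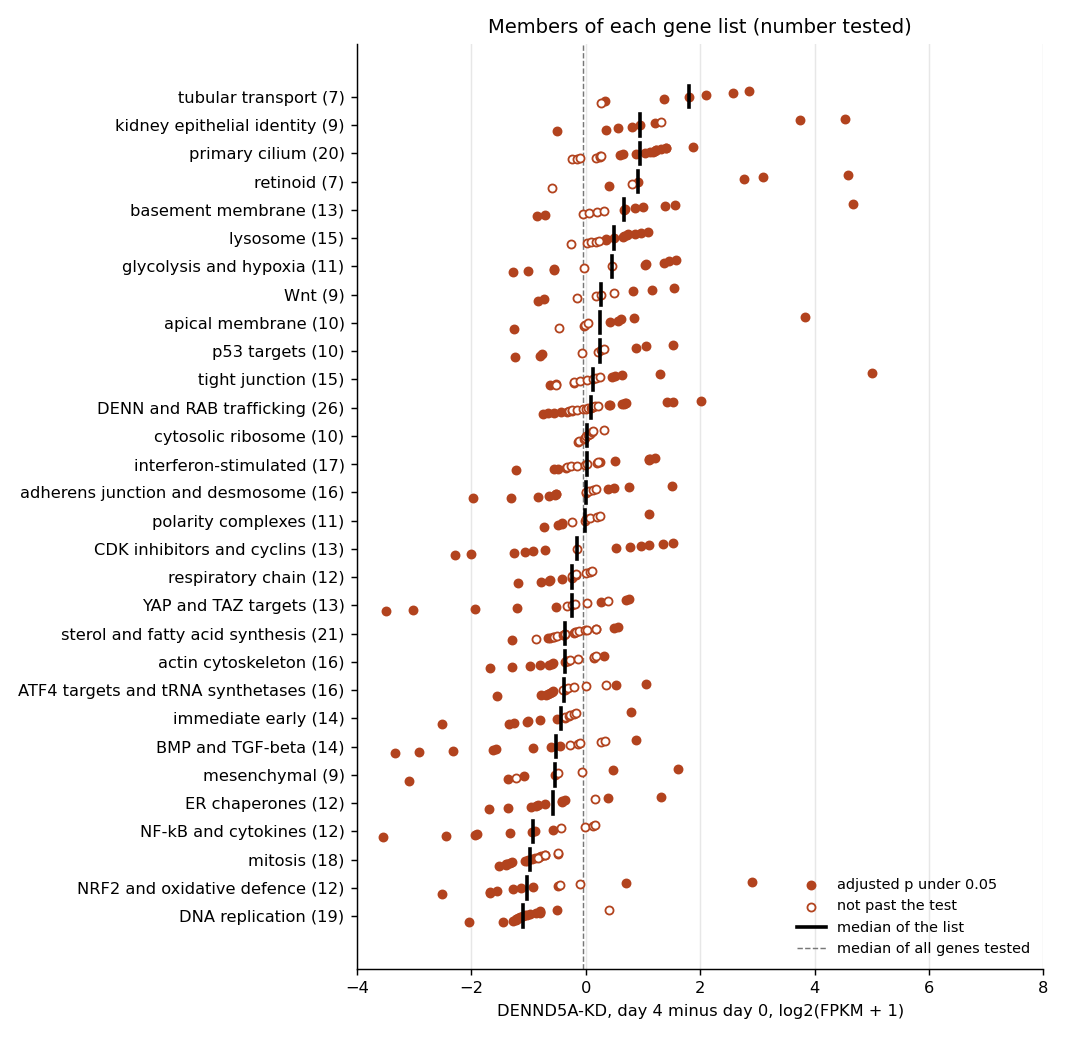
Log2 change of every tested member of 30 gene lists, day 4 minus day 0, ordered by list median. Filled points passed the test, open points did not, black bars are list medians and the dashed line is the median of all genes tested. Tubular transport has the highest median (1.80) and DNA replication the lowest (-1.10). The share of members past the test was also near the 53.5% of all genes for Wnt (55.6%), actin (56.2%), immediate early (57.1%), apical (60.0%), YAP and TAZ (61.5%), tight junction (46.7%) and polarity genes (45.5%).

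Signal-induced genes fell more often than they rose. Of 14 immediate early genes 7 fell and 1 rose (median -0.43). FOSL1, an AP-1 subunit, read 1.51 and 3.59 FPKM at day 4 against 16.2 and 21.2 FPKM at day 0 (-2.52 ± 0.14, SE, adjusted p = 0.000128), and MYC read 30.5 and 50.4 FPKM against 87.2 and 118 FPKM (-1.35 ± 0.18, adjusted p = 0.00108). EGR1, a zinc finger factor, was the one that rose, with 74.8 and 90.0 FPKM against 46.5 and 47.7 FPKM (0.79 ± 0.10, adjusted p = 0.001). FOS read 39.2 and 29.5 FPKM against 35.0 and 48.3 FPKM, with groups that overlapped (-0.27 ± 0.18, adjusted p = 0.253). Of 12 NF-kB targets and cytokines 8 fell and none rose (median -0.92), among them BIRC3, an inhibitor of apoptosis, at 3.71 and 7.71 FPKM against 33.1 and 34.9 FPKM (-2.45 ± 0.18, adjusted p = 0.000229), and TNFAIP3, a feedback deubiquitinase, at 1.36 and 1.91 FPKM against 5.6 and 5.57 FPKM (-1.33 ± 0.15, adjusted p = 0.000593).

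Of 17 interferon-stimulated genes 6 rose and 4 fell (median 0.02), and the 58.8% past the test was near the 53.5% of all genes tested. BST2, tetherin, read 18.6 and 21.3 FPKM at day 4 against 7.55 and 9.65 FPKM at day 0 (1.13 ± 0.10, SE, adjusted p = 0.000295), and RSAD2, viperin, read 7.2 and 11.8 FPKM against 21.9 and 23.8 FPKM (-1.22 ± 0.28, adjusted p = 0.00963). After quantile normalization 2 were lower. Of 10 p53 targets 3 rose and 3 fell, 60.0% past the test: SESN2, a stress-induced inhibitor of mTORC1, rose by 1.52 ± 0.13, and CCNG1 fell by 1.24 ± 0.10.

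Metabolic genes showed the widest gap between lines. Of 11 glycolysis and hypoxia genes 5 rose and 4 fell (median 0.45), but the median was -0.04 in line 1 and 0.95 in line 2, and the change was larger in line 2 for all 11. BNIP3, a hypoxia-induced mitophagy receptor, read 29.9 and 180 FPKM at day 4 against 23.2 and 25.1 FPKM at day 0 (1.57 ± 0.52, SE, adjusted p = 0.0372). VEGFA, the angiogenic growth factor, read 10.9 and 24 FPKM against 5.55 and 5.78 FPKM (1.37 ± 0.26, adjusted p = 0.00464), and PFKL, a phosphofructokinase, read 36.1 and 104 FPKM against 20.6 and 23.2 FPKM (1.45 ± 0.30, adjusted p = 0.00665). Line 2 at day 4 was thus far above line 1, whose values were nearer to day 0. At day 7 the lines were close, with BNIP3 at 138 and 176 FPKM and a list median of 1.34 relative to day 0. Fewer calls were made when a library was left out: no gene rose and 1 fell without day 0 line 2, and 6 rose and 1 fell without day 4 line 1. Another phosphofructokinase, PFKP, fell in both lines, with 32.8 and 48.8 FPKM against 90.2 and 106 FPKM (-1.27 ± 0.14, adjusted p = 0.000618).

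Other metabolic and stress lists had closer medians in the 2 lines. Of 12 NRF2 and oxidative defence genes 8 fell and 2 rose (median -1.03). TXNRD1, thioredoxin reductase, read 16.1 and 15.8 FPKM at day 4 against 46.2 and 51.8 FPKM at day 0 (-1.56 ± 0.09, SE, adjusted p = 0.000152), and GCLM, which limits glutathione synthesis, fell by 1.28 ± 0.09. The thioredoxin inhibitor TXNIP read 243 and 414 FPKM against 37.8 and 45.3 FPKM (2.91 ± 0.24, adjusted p = 0.000294), and its relative ARRDC4 rose by 0.70. Of 12 endoplasmic reticulum chaperone genes 9 fell and 2 rose (median -0.57), led by MANF at 32.8 and 34.8 FPKM against 84.9 and 91.2 FPKM (-1.36 ± 0.09, adjusted p = 0.000176), while HERPUD1, of protein disposal, rose by 1.31 ± 0.15. Of 16 ATF4 targets and tRNA synthetases 9 fell and 2 rose (median -0.39): MTHFD2, of mitochondrial folate metabolism, fell by 1.56 ± 0.15, and ATF4 itself (0.53) and the glutathione-degrading CHAC1 (1.06 ± 0.18) rose. The 9 falls were 2 without day 0 line 2, 4 without day 0 line 1 and 4 without day 4 line 2. Of 12 respiratory chain genes 5 fell and none rose (median -0.24), CYC1, cytochrome c1, by 1.19 ± 0.13. The 41.7% of this list past the test was below the 53.5% of all genes tested.

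Of 21 sterol and fatty acid synthesis genes 16 did not pass, 3 fell and 2 rose (median -0.36). The falls included IDI1 (-1.30 ± 0.28) and FASN (-0.67 ± 0.13), and the rises were the regulators SREBF2 (0.57 ± 0.16) and SREBF1 (0.49 ± 0.11). Of 10 cytosolic ribosome genes none passed with limma and none reached an unadjusted p under 0.05 (median 0.02, line 1 -0.12 and line 2 0.16), and after either rescaling 1 was higher.

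Among genes with a symbol and a mean of at least 5 FPKM, the 5 with the largest difference between the changes of the 2 lines, chosen for that difference and therefore not tested, were TIMM13, FGFBP1, SNORD89, WRB and BNIP3. TIMM13, a mitochondrial import chaperone, read 33.7 and 62.0 FPKM at day 4 against 254 and 77.1 FPKM at day 0, so the difference lay in day 0 line 1. FGFBP1, which releases stored fibroblast growth factors, read 4.63 and 54.2 FPKM against 61.9 and 74.7 FPKM, and 48.6 and 78.4 FPKM at day 7. Here day 4 line 1 was the low library. WRB, of tail-anchored protein insertion, read 0 and 20.4 FPKM against 10.8 and 8.52 FPKM, and SNORD89, a small nucleolar RNA, 7.99 and 0 FPKM against 7.74 and 6.2 FPKM. Values listed at 0 beside 10 FPKM or more in the other line of the same day were found in 8 tested genes.

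The course ran largely along that of the other cells. Over 10598 genes tested in both, changes correlated across genes with r = 0.874 with wild type and 0.893 with AVL9-KD. No library is shared between these courses, and the points share genes, not replicates. Of the 2541 genes higher and 3154 lower in DENND5A-KD that were tested in both, 2204 and 2678 were called the same way in wild type, which is 86.7% and 84.9% of the DENND5A-KD calls and 66.9% and 75.8% of the wild-type calls. In the opposite direction 14 and 6 were called. The wild-type course had 7092 of 11051 genes past the test (64.2%), 32.0% higher and 32.2% lower.

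The difference between the DENND5A-KD and wild-type changes, tested as an interaction over 11289 genes, passed for 350 (3.10%), 179 with a higher change in DENND5A-KD (1.59%) and 171 with a lower one (1.51%). Replicate 1 of wild-type day 0 and replicate 1 of wild-type day 4 stand apart from the other libraries of their groups. Without both, 151 of the 179 and 91 of the 171 still passed. The count of 350 was 37 without DENND5A-KD day 0 line 1, 83 without day 0 line 2 and 39 without day 4 line 1, and 351 without day 4 line 2. Day 0 and day 4 both entered these differences: of the 179, 31 had a day 0 mean above wild type and 166 a day 4 mean above wild type, and of the 171 the numbers were 123 and 20.

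Mitosis genes made up 14 of the 179, that is 14 of the 18 on the list against 1.59% of all genes tested, and none was called lower. The median change was -0.97 in DENND5A-KD, -2.75 in AVL9-KD and -2.36 in wild type, where all 18 fell. BIRC5, survivin of the chromosomal passenger complex, read 45.3 and 31.1 FPKM at day 4 against 64.8 and 65.4 FPKM at day 0 in DENND5A-KD, while wild type averaged 12.8 FPKM at day 4 and 70.6 FPKM at day 0 (difference 1.59, adjusted p = 0.0061). FOXM1, the transcription factor of mitotic genes, gave a difference of 1.43 (adjusted p = 0.00375). Day 0 levels were close in both kinds of cell, and the gap lay at day 4. All 18 differences were positive under every setting tried, yet the count was 0 without DENND5A-KD day 0 line 1 or day 4 line 1, 3 without day 0 line 2, 6 without wild-type day 4 replicate 3 and 9 without wild-type day 0 replicate 2 or 3. For DNA replication 9 of 19 passed, all with a higher change in DENND5A-KD, among them MCM5 (1.52, adjusted p = 0.00194) and UHRF1, which maintains DNA methylation (1.24, adjusted p = 0.00158). That count was 2 without DENND5A-KD day 0 line 1 or day 4 line 1 and 4 without day 0 line 2.

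**Figure D4:**
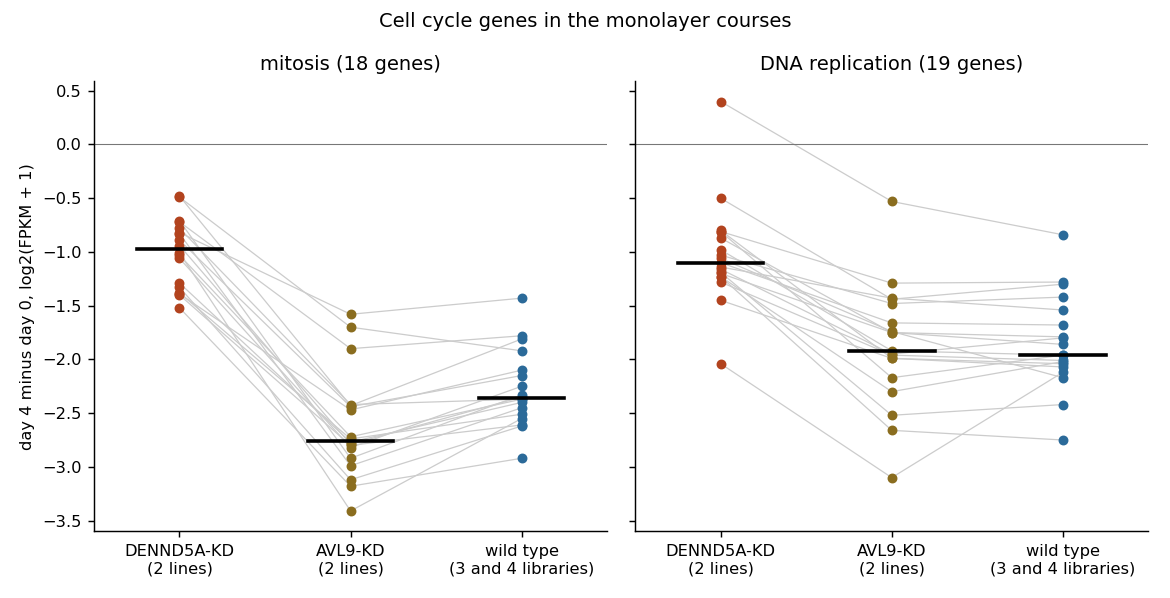
Log2 change of each mitosis gene (left) and DNA replication gene (right), day 4 minus day 0, in DENND5A-KD, AVL9-KD and wild type, with grey lines joining a gene and black bars at the medians. The DENND5A-KD points of the mitosis list lie between -1.52 and -0.48, above the points of the same genes in the other courses.

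ATF4 targets gave 6 of 16 genes with a higher change than in wild type, against 1.59% of all genes tested, and none lower. Among the 6 were SLC7A11, the cystine importer (1.71, adjusted p = 0.0061), PSAT1, of serine synthesis (1.44, adjusted p = 0.0169), and TRIB3, a pseudokinase (1.77, adjusted p = 0.0312). SLC7A11 read 3.68 and 2.73 FPKM at day 4 against 4.35 and 4 FPKM at day 0 in DENND5A-KD, while wild type averaged 1.68 FPKM at day 4 and 9.77 FPKM at day 0. The median change of the list was -0.39 in DENND5A-KD, -0.07 in AVL9-KD and -1.06 in wild type. The count was 0 when DENND5A-KD day 0 line 1, day 0 line 2 or day 4 line 1 was left out.

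Among single genes the immediate early genes FOSB and FOS differed most plainly at day 0. FOS, with 39.2 and 29.5 FPKM at day 4 and 35.0 and 48.3 FPKM at day 0 in DENND5A-KD, read 21.7, 23.1 and 17.5 FPKM at day 4 and 141, 127, 155 and 179 FPKM at day 0 in wild type (difference 2.53 ± 0.28, SE, adjusted p = 0.000142). FOSB read 1.15 and 1.41 FPKM against 2.62 and 4.85 FPKM in DENND5A-KD, and 0.734, 1.09 and 0.721 FPKM against 21.6, 15.1, 42.4 and 36.5 FPKM in wild type (2.90 ± 0.40, adjusted p = 0.00121). Wild-type day 0 was the high group in both. EGR1 rose in DENND5A-KD and read 59.7, 65.8 and 41.8 FPKM at day 4 against 92.4, 114, 104 and 133 FPKM at day 0 in wild type (1.78 ± 0.30, adjusted p = 0.00375). These 3 genes passed without any single library of the 11 and without both wild-type libraries that stand apart.

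CLEC7A, the beta-glucan receptor dectin-1, read 9.58 and 16.2 FPKM at day 4 against 0.512 and 1.04 FPKM at day 0 in DENND5A-KD, and at most 2.37 FPKM in the wild-type libraries (difference 3.15 ± 0.42, SE, adjusted p = 0.00105). TP53I11, a p53-inducible membrane protein, read 8.08 and 4.3 FPKM against 0.112 and 0.168 FPKM in DENND5A-KD and at most 0.71 FPKM in wild type, a difference of 2.51 ± 0.43 that is a description only, since the gene met the filter through DENND5A-KD day 4 alone. Both were gained at day 4 in the DENND5A-KD lines. CLDN2 (2.42 ± 0.43, adjusted p = 0.00502) and CHRM4 (2.64 ± 0.47, adjusted p = 0.0047) differed at day 0. CLDN2 in wild type read 106, 82.5 and 74.0 FPKM at day 4 against 6.54, 15.5, 14.3 and 22.4 FPKM at day 0, above the 0.617 and 0.563 FPKM of DENND5A-KD day 0. At day 4 the DENND5A-KD libraries also lay below every wild-type library for CLDN2, by a smaller gap on the log2 scale. S100A4 rose in DENND5A-KD, whereas wild type read 25.7, 21.5 and 8.34 FPKM against 31.9, 25.7, 32.6 and 16.1 FPKM (2.20 ± 0.56, adjusted p = 0.0381).

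TMEM27, VWA2 and HNF4A, which wild type gained by day 4, stayed low. TMEM27, collectrin, which carries amino acid transporters to the apical surface, read 0.0355 and 0.2 FPKM at day 4 in DENND5A-KD and 7.19, 4.13 and 5.71 FPKM in wild type (difference -2.57 ± 0.38, SE). VWA2, a matrix protein with von Willebrand A domains, read 0.399 and 1.12 FPKM at day 4 in DENND5A-KD and 15.7, 7.21 and 13.8 FPKM in wild type (-2.66 ± 0.43). Both were close to 0 at day 0 in both kinds of cell and were not tested within DENND5A-KD. They met the filter of the difference test only through wild-type day 4, where they are high, so their differences are given as a description. HNF4A, at 1.12 and 2.32 FPKM at day 4 in DENND5A-KD and 26.8, 12.6 and 15.3 FPKM in wild type, gave -2.20 ± 0.55 (adjusted p = 0.0352) and did not pass without both wild-type libraries that stand apart (adjusted p = 0.0995). In AVL9-KD at day 4 HNF4A differed between lines 1 and 4, at 0.996 and 13.1 FPKM. At day 7 it read 2.74 and 3.97 FPKM in DENND5A-KD.

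**Figure D5:**
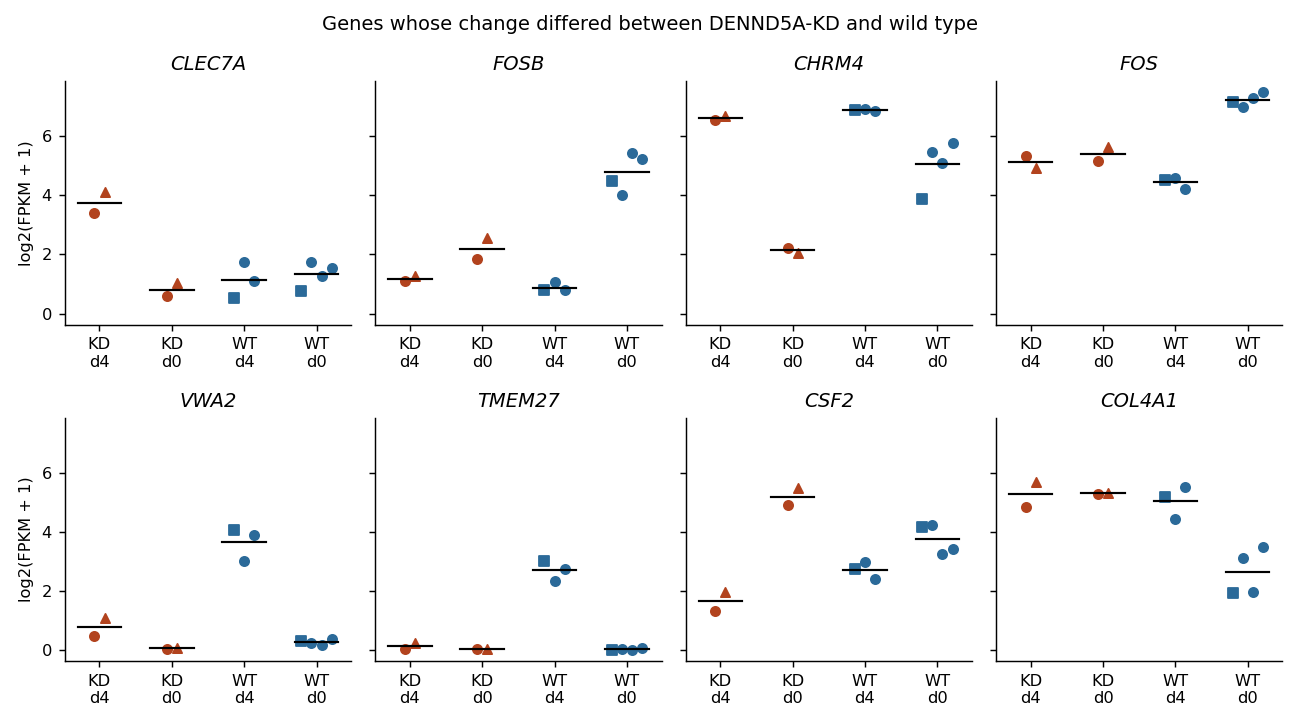
Log2(FPKM + 1) per library of 4 genes with a positive (top row) and 4 with a negative (bottom row) difference between the DENND5A-KD (KD) and wild-type (WT) changes, at day 4 (d4) and day 0 (d0). Circles and triangles in KD are lines 1 and 2, squares in WT are the libraries that stand apart, and bars are group means. VWA2 and TMEM27 are high in WT day 4 only, and FOS and FOSB are highest in WT day 0.

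CSF2 fell further than in wild type, where it read 5.68, 6.98 and 4.28 FPKM at day 4 against 16.9, 18.1, 8.56 and 9.72 FPKM at day 0 (difference -2.48 ± 0.38, SE, adjusted p = 0.00168). ANKRD1 did so as well (-2.21 ± 0.55, adjusted p = 0.0355), from a day 0 level of 22.3 and 30.1 FPKM in DENND5A-KD against 14.8, 7.86, 3.75 and 4.58 FPKM in wild type. COL4A1, collagen IV, read 27.6 and 51.2 FPKM at day 4 against 38.5 and 39.4 FPKM at day 0 in DENND5A-KD, a change of -0.05 ± 0.28 (adjusted p = 0.898) whose sign turned under several settings, while wild type read 35.0, 20.9 and 44.5 FPKM against 2.8, 7.7, 2.96 and 10.3 FPKM (-2.46 ± 0.60, adjusted p = 0.0318). Without both wild-type libraries that stand apart the COL4A1 difference did not pass (adjusted p = 0.075). RASL11A, a RAS-like GTPase, read 1.12 and 2.7 FPKM against 2.3 and 2.81 FPKM in DENND5A-KD, and 9.59, 5.54 and 7.44 FPKM against 1.39, 1.27, 1.43 and 1.28 FPKM in wild type (-2.17 ± 0.32, adjusted p = 0.00158).

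Set against the AVL9-KD course, over 11249 genes, 5 differed (0.0444%), all with a lower change in DENND5A-KD. None had a higher change with limma, although 584 did at an unadjusted p under 0.05, beside 1536 with a lower one, and with all 29 libraries in the fit 265 passed, 134 higher and 131 lower. The median difference over all genes was -0.12, and -0.01 after median-ratio scaling. EGR1 read 74.8 and 90.0 FPKM at day 4 against 46.5 and 47.7 FPKM at day 0 in DENND5A-KD, and 104 and 120 FPKM against 16.4 and 16.9 FPKM in AVL9-KD (difference -1.89 ± 0.14, SE, adjusted p = 0.0151). It rose in both, by more in AVL9-KD. KRT14, a basal keratin, read 0.055 and 0.125 FPKM against 4.57 and 6.3 FPKM in DENND5A-KD, and 4.64 and 5.17 FPKM against 4.82 and 5.39 FPKM in AVL9-KD (-2.50 ± 0.18, adjusted p = 0.0151), so it fell in DENND5A-KD and held in AVL9-KD. The small nucleolar RNA SNORA14 was listed at 0 in all DENND5A-KD libraries and at day 0 in AVL9-KD, and read 6.79 and 12.2 FPKM at day 4 in AVL9-KD, through which alone it met the filter. The other 2, ENSCAFG00000027897 and ENSCAFG00000028447, have no symbol and are given because they complete the count. ENSCAFG00000027897 was listed at 0 at day 4 against 19.5 and 15.7 FPKM at day 0 in DENND5A-KD and at 0 throughout in AVL9-KD. It met the filter only through DENND5A-KD day 0, so its difference is a description. Of the genes named above for a difference from wild type, EGR1 alone was among the 5. For the others, not passing does not show that the 2 knockdowns changed alike.

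For mitosis none of the 18 differences from AVL9-KD passed, all 18 were positive with an unadjusted p under 0.05, the median difference was 1.65, and 15 passed with all 29 libraries in the fit. Of all 11249 differences, 3684 were positive and 1536 were lower at an unadjusted p under 0.05. Interferon-stimulated genes leaned the other way from mitosis, with 17 of 18 differences negative and a median of -0.93. None passed the test, 16 had an unadjusted p under 0.05 and 6 were lower with all 29 libraries. Without AVL9-KD line 4 at day 0 or at day 4, the median was 1.21 for mitosis and -0.62 for interferon-stimulated genes. Within the DENND5A-KD course 6 of 17 tested interferon-stimulated genes rose, beside 23.9% of all genes tested. In the AVL9-KD course 16 of the 19 members in the files rose, where 63.8% of all genes tested passed and 35.3% rose.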

How the data were processed

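RNA from MDCKII cells was sequenced with a stranded mRNA kit, per the labels' protocols. The authors deposited 1 table of FPKM values per library, and the submitters' processing notes name HISAT2 2.1.0 and Cufflinks 2.2.1 as tools, with no role given, beside canFam3 and CanFam3.1 as genome builds. No counts were used and absolute depth is unknown, so no counting interval was given. Of 24223 genes, 15796 had a symbol of their own. Values were taken as log2(FPKM + 1) and fitted with limma 3.58.1 in R 4.3.3, with a trend of variance on mean expression and a term for the line number within each knockdown (wild-type libraries were not paired). The fit used the 10 libraries of the 2 knockdowns at day 0, day 4 and, for DENND5A-KD, day 7, with 3 residual and 4.01 prior degrees of freedom. The differences from wild type used all 29 libraries, and those from AVL9-KD the 10.

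Libraries were paired by the line number in their titles, which do not say what the number marks. The gene-wise differences between lines 1 and 2 correlated at 0.154 between day 0 and day 4, at 0.136 between day 0 and day 7 and at 0.0354 between day 4 and day 7. Those between the 2 AVL9-KD lines correlated at 0.453 between day 0 and day 4. The fit was tested on simulated data with 200 changed genes.

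The genes named are DENND5A and AVL9, the 12 largest changes each way among genes past the test whose higher group averaged 5 FPKM or more and whose groups stood apart, up to 4 passing members per list, the 8 largest differences from wild type each way, up to 4 from AVL9-KD each way, and the 5 largest differences between lines, all among genes with a symbol of their own. Other list members are named to fill small counts or to show members that did not pass, and were chosen after their values were seen. Some genes that met the rule are not reported here. The members and the lists were chosen with earlier results of these data known.

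The alternatives changed the scaling (quantile or median-ratio), the pseudocount (0.1), the filter, the trend, the block or the set of libraries, or left out each library in turn. Counts of list members past the tests of differences under each setting were added after seeing the data. Cyst libraries were not analysed here beyond their part in the fit of all 29.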

Additional observations from a re-analysis of the deposited data

Results flagged for a closer look

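The difference between the DENND5A-KD and wild-type changes from day 0 to day 4 passed limma's test for the 15 genes named here, and each is given here as a log2 difference. It was positive for CLEC7A (3.15), FOSB (2.90), CHRM4 (2.64), FOS (2.53), TP53I11 (2.51), CLDN2 (2.42), S100A4 (2.20) and CHAC1 (2.06). It was negative for VWA2 (-2.66), TMEM27 (-2.57), CSF2 (-2.48), COL4A1 (-2.46), ANKRD1 (-2.21), HNF4A (-2.20) and RASL11A (-2.17). Against AVL9-KD the difference passed for SNORA14 (-3.34), KRT14 (-2.50) and EGR1 (-1.89). TP53I11, TMEM27, VWA2 and SNORA14 met the filter only through the 1 group where they are high, so their differences are a description. How often they passed among the alternatives given next is no support for them either. Of the 15, CLEC7A, CSF2, FOS, FOSB, RASL11A and TMEM27 passed under all 20 alternatives, while HNF4A did not pass in 14, S100A4 in 11, COL4A1 in 10, ANKRD1 in 9, CHAC1 in 8, CHRM4 and TP53I11 in 3 each, CLDN2 in 2 and VWA2 in 1. Against AVL9-KD, SNORA14 did not pass in 9 of 15 alternatives, and EGR1 and KRT14 in 5 each.

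One wild-type day 0 library read 25.3 FPKM of CHAC1 and stood apart from the other 3 of its group. About 1 in 20 groups would be marked in this way by chance.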

How the results depend on the processing

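The 5764 calls of the day 4 against day 0 comparison ranged from 2545 to 4348 when 1 of the 4 libraries was left out. Without the line numbers as a replicate block the count was 4420, and quantile normalization gave 5721, median-ratio scaling 6005 and the 4 libraries alone 6295. The 350 differences from wild type were 626 after quantile normalization, 648 after median-ratio scaling, 224 with no replicate block, 114 with the 11 libraries alone and 37 to 351 with 1 library left out. The 5 differences from AVL9-KD were 2 after quantile normalization, 3 after median-ratio scaling, 24 with a pseudocount of 0.1, 1 with no expression filter, 265 with all 29 libraries and 1 to 73 with 1 library left out. The cause of these shifts was not tested.

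Of the day 4 against day 0 values of named genes over all alternatives, 2000 kept their direction and side of the threshold, 60 no longer passed, 14 newly passed and 12 changed sign, none of the 12 past the test. Of the 15 named differences from wild type, 7 did not pass without DENND5A-KD day 4 line 1, 7 without day 0 line 1, 7 without day 0 line 2, 6 with the 11 libraries alone and 5 without wild-type day 4 replicate 3 or with no expression filter. All 3 named differences from AVL9-KD did not pass with no expression filter or without DENND5A-KD day 0 line 1, day 0 line 2 or day 4 line 1. COL4A1 gave 0.15 after quantile normalization, 0.05 after median-ratio scaling, 0.09 without day 0 line 1 and 0.44 without day 4 line 1. Without day 0 line 1, AVL9 gave -0.07 and WRB 0.06. Without day 4 line 1, AVL9 gave -0.04, WRB 1.09 and RASL11A 0.16. FOS gave 0.05 without day 0 line 2 and 0.06 without day 4 line 2, and SNORD89 0.11 without day 4 line 2. The opposite ends of these ranges over single libraries left out were -0.54 for COL4A1, -0.83 for RASL11A and -3.49 for WRB without day 4 line 2, and -0.59 for FOS and -2.92 for SNORD89 without day 4 line 1. With 2 lines a group and unknown depth, small changes of genes with low FPKM cannot be resolved.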
